A study of Mus musculus with 5 samples.

Results

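The 10 genes described here encode secreted inhibitors of Wnt signaling (*Sfrp1*, *Sfrp2*, *Dkk2*, *Dkk3*, *Wif1*), Wnt receptors (*Fzd1*, *Fzd2*, *Lrp6*) and 2 intracellular components (*Ctnnb1*, *Axin2*). They were taken by name from the 20365 genes in the tables of newly synthesized RNA, and each was represented by its 3′ UTR interval with the highest mean level in the labeled libraries. All 10 names were found, with 13 intervals in total. The RNA came from cultured cardiac fibroblasts (CF) of healthy male C57Bl/6J wildtype mice aged 10 to 12 weeks. Per the methods, cardiomyocytes were pelleted by a slow spin and CF were depleted of CD31+ and CD45+ cells with magnetic beads. CF were then grown to confluency and pooled from 2 wells for each sample. The labeled group (3 libraries) received 0.1 mM 4-thiouridine (S4U), a uridine analog that growing transcripts take up, for 12 h. The unlabeled group (2 libraries) was kept for the same time without S4U, and the RNA of both groups was alkylated, so that an incorporated S4U is read as C where the genome has T. The methods give 3 CF preparations for the assay and state that the unlabeled cells were kept in parallel, but nothing ties a library to its own mouse or preparation, so that every p-value below measures the spread between these libraries only.

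Wnt proteins are secreted ligands that bind a Frizzled receptor together with the co-receptor LRP5 or LRP6. Without a ligand, a destruction complex built on Axin marks β-catenin, the product of *Ctnnb1*, for degradation. With a ligand, β-catenin accumulates and enters the nucleus, where TCF and LEF factors use it to switch on target genes such as *Axin2*, which feeds back on the pathway. Secreted frizzled-related proteins (SFRP) and WIF1 bind the ligands themselves, whereas most Dickkopf proteins (DKK) bind LRP5 and LRP6. In the heart the pathway is known for its part in development and in fibroblast responses after injury.

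All 13 intervals lay within the annotated UTR of the last exon, and the sequences below are motif matches within them. They were read from GRCm39 on the strand of the gene, as 30 bases with the motif in capitals. The AU-rich heptamer TATTTAT, which is known from unstable mRNAs and contains the shorter element ATTTA, was found in *Axin2*, *Dkk3*, *Fzd1* and *Lrp6*, and in 33.3%, 45.5% and 59.0% of all intervals in the length classes of *Axin2* and *Fzd1*, of *Dkk3* and of *Lrp6*, which start at 1000, 2000 and 3000 bases. The other 6 intervals used did not hold it.
Axin2, chr11:108840445-108840474, plus strand: aaaagcctgaacTATTTATtcaaaacatga
Axin2, chr11:108840596-108840625, plus strand: agtccttactgaTATTTATtgaacagtcga
Dkk3, chr7:111715495-111715524, minus strand: tctttccctgatTATTTATtctggaacccc
Fzd1, chr5:4803910-4803939, minus strand: tgagatcatctaTATTTATagaggaataga
Lrp6, chr6:134427567-134427596, minus strand: agaagaaaagaaTATTTATatattttctta
Lrp6, chr6:134423629-134423658, minus strand: tttgcaaggatgTATTTATattataatggc

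The second motif was TGTANATA (N is any base), the core recognized by Pumilio proteins. It was found in *Sfrp1*, *Sfrp2*, *Fzd1*, *Fzd2*, *Lrp6* and *Dkk2*. It is shown for *Sfrp1* and *Sfrp2*, chosen after their low T>C conversion rates were seen, and for *Fzd2*, which like them holds it without TATTTAT but had one of the higher rates. The motif occurred in 15.4% of all intervals in the length class of *Sfrp2*, 27.0% in that of *Fzd2* and 52.4% in that of *Sfrp1*. Only the strand of the gene was searched for either motif.
Sfrp1, chr8:23937915-23937944, plus strand: cttaataagtgaTGTAAATAttccagttct
Sfrp2, chr3:83681548-83681577, plus strand: tttaaccgacacTGTAAATAtttcagataa
Sfrp2, chr3:83681579-83681608, plus strand: cattatattcttTGTATATAaactttacat
Fzd2, chr11:102497469-102497498, plus strand: tgtaattaaaacTGTAAATAgtctttgtaa

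The reads come from the 3′ ends of polyadenylated transcripts, so the hexamers AATAAA and ATTAAA, which signal cleavage and polyadenylation, were searched in the last 50 bases of each interval. Either hexamer was present in 8 of the 10 intervals used and in 73.7% of the intervals of all genes. *Sfrp1* and *Sfrp2* held neither of these letters in that window. The *Dkk3* interval is shown because it ends 2322 bases before the annotated end of the gene, and the *Ctnnb1* interval because it has the largest read count after *Sfrp1*.
Dkk3, chr7:111715234-111715263, minus strand: atttaggaaaacAATAAAtgtaactgatga
Ctnnb1, chr9:120789541-120789570, plus strand: aaatggttcagaATTAAActtttaattcat

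The number of counted reads was 1576048, 1194971 and 506045 in the labeled libraries (replicates 1 to 3), and 1842706 and 995960 in the unlabeled ones. Levels are given as CPM, the reads of a gene in 1000000 of these counted reads, with no division by length because each transcript yields reads at its 3′ end only. The T>C conversion rate is the number of T>C conversions divided by the number of covered T, where a T counts once for every read that covers it, and over all intervals it was 0.0353 to 0.0358 in labeled and 0.000652 to 0.00111 in unlabeled libraries. The summed level of 8 fibroblast markers was 38170 to 41980 CPM in the labeled and 31060 and 34720 in the unlabeled libraries. Of these markers, all labeled values of *Col1a1* were above both unlabeled values, those of *Pdgfra* (522 against 782 on average) and *Ddr2* (285 against 417) were below both, and none passed edgeR's test (adjusted p of 0.81 or more). The summed level of 5 endothelial markers was between 96.4 and 212, and that of 5 leukocyte markers between 35.6 and 57.7. Markers of pericytes and smooth muscle, of epicardial or mesothelial cells and of Schwann cells each summed to 15.8 or less. The epicardial or mesothelial sum, from few reads, was 3.81, 5.02 and 5.93 in the labeled and 0.543 and 1.00 in the unlabeled libraries. Its part in the members' values was not tested. Of 5 cardiomyocyte markers, *Actn2*, *Myl2* and *Ryr2* had no read, *Myh6* had 1 read and *Tnnt2* had 18 reads over all libraries, and their summed level was between 0.635 and 6.02. These are bulk samples, in which fewer cells of a type and less RNA per cell cannot be told apart.

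Among the secreted inhibitors, *Sfrp1* was by far the most abundant, *Sfrp2* and *Dkk3* were measured at lower levels, and *Dkk2* and *Wif1* were at or near the detection limit. *Sfrp1* and *Sfrp2* had about the same low T>C conversion rate in labeled libraries, 0.0200 ± 0.000856 and 0.0203 ± 0.00506 (SD, n = 3). That of *Dkk3* was 0.0392 ± 0.0131 (SD, n = 3), on too few covered T to place it among the other members. *Sfrp2* and *Dkk3* had a lower level (CPM) in every labeled library than in either unlabeled library, as did 13.1% of all genes tested. Neither difference passed the test adjusted over all genes. Both genes passed edgeR's test with the replicate number as a block (adjusted p = 5.01e-05 and 1.3e-07), though nothing states that a number marks a shared preparation. That fit called 529 genes higher and 617 lower of 9806, so that the call is not particular to these genes. Labeled replicate 3 shares its number with no unlabeled library and adds nothing to the comparison of the groups in that fit.

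**Figure D1:**
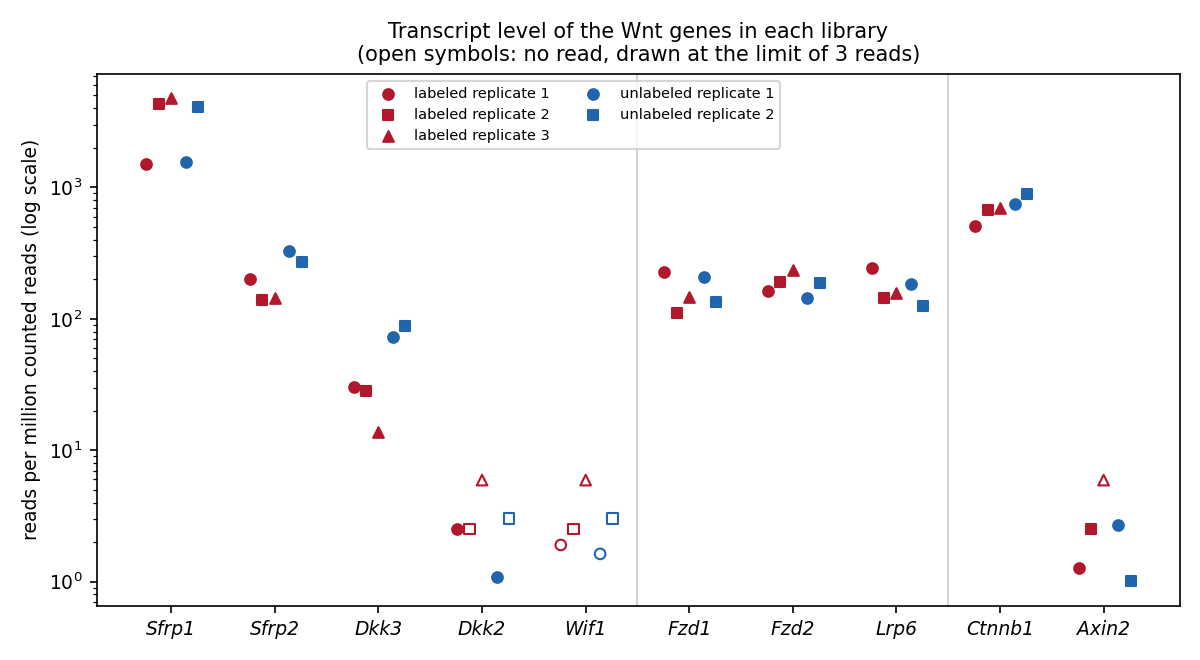
Transcript level of the 10 Wnt genes in each library, in CPM of counted reads on a log scale; filled symbols are measured values, and open symbols mark a library with no read, drawn at the level that 3 reads would give. Sfrp1 lies at 1507 or more in all 5 libraries, and Wif1 has open symbols only.

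*Sfrp1* (ENSMUSG00000031548.9, chr8:23936505-23939648, plus strand, exon 3 of 3, 3144 bases) ranked 15th of all genes by its mean level in the labeled libraries. With S4U its level was 1507, 4325 and 4804 CPM (replicates 1 to 3), and without it 1571 and 4098 (replicates 1 and 2, the order used throughout). Both libraries numbered 1 were low, the other 3 were high, and the groups overlapped. The largest labeled value was 3.19 times the smallest. In the same libraries the summed endothelial markers were at 96.4, 199 and 109 in the labeled and at 137 and 212 in the unlabeled group, so that labeled replicate 3, the highest in *Sfrp1*, was not high in them, and their part in the spread was not tested. The summed cardiomyocyte markers, a few reads per library, were at 0.635, 5.86 and 3.95 in the labeled and at 1.63 and 6.02 in the unlabeled group, low in both libraries numbered 1 like *Sfrp1*, and their part was not tested either. The log2 fold change of reads, labeled over unlabeled, was 0.39 ± 0.61 (SE), with a 95% interval from -1.04 to 1.83 (edgeR adjusted p = 0.999). The authors' deposited CPM, which has a larger denominator, was 199, 367 and 166 in the labeled and 200 and 372 in the unlabeled libraries.

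The spread in *Sfrp1* level was not accompanied by a spread in its T>C conversion rate. The rate was 0.0195, 0.0210 and 0.0195 with S4U, on 47972 to 122894 covered T in a library. It was 0.00035 and 0.00038 without S4U. Reads with a conversion were 25.4%, 30.8% and 28.3% of all *Sfrp1* reads in the labeled group, and 0.725% and 0.931% in the unlabeled group. The converted reads carried 1.55 to 1.62 conversions each with S4U and 1 each without it. The rate was higher with S4U by the beta-binomial test (difference 0.0196, adjusted p = 4.83e-06), as it was for 18175 of 19240 intervals tested (94.5%), so that the call itself sets no gene apart. The 2119 genes with 1000 or more covered T in all labeled libraries are called deeply covered here. Among these genes, whose median rate was 0.0388 (quartiles 0.0343 and 0.0423), 7.74% had a lower mean rate than *Sfrp1*.

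*Sfrp2* (ENSMUSG00000027996.15, chr3:83680730-83681621, plus strand, exon 3 of 3, 892 bases) encodes a related inhibitor. Its level was 199, 140 and 144 CPM with S4U, from 314, 167 and 73 reads, and 328 and 269 without it, from 605 and 268 reads. Every labeled library lay below both unlabeled libraries. The log2 fold change was -0.81 ± 0.25 (SE), with a 95% interval from -1.41 to -0.21, an unadjusted p of 0.0152 and an adjusted p of 0.724 by edgeR. The interval overlaps the long noncoding RNA gene *Gm26771* on the other strand, and whether the counting used strand is not given in the sources used here.

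The T>C conversion rate of *Sfrp2* was 0.0203, 0.0253 and 0.0152 in the labeled libraries, the last from 1775 covered T with a 95% Wilson interval of 0.0105 to 0.0220. In the unlabeled libraries it was 0.0011 and 0.00104. The beta-binomial test gave a difference of 0.0192 (adjusted p = 5.09e-05). Converted reads made up 33.8%, 38.9% and 24.7% of its reads with S4U, and 2.81% and 2.61% without it. Of the deeply covered genes, 8.02% had a lower rate than *Sfrp2*. Its mean level was thus 161 against 3545 CPM for *Sfrp1*, at nearly the same rate (difference 0.000307, below the SD of either gene).

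*Dkk3* (ENSMUSG00000030772.8, chr7:111715226-111717417, minus strand, exon 8 of 8, 2192 bases) encodes a divergent Dickkopf protein. Its level was 30.5, 28.5 and 13.8 CPM with S4U, from 48, 34 and 7 reads, and 73.3 and 88.4 without it, from 135 and 88 reads. The groups did not overlap, and the mean was 24.3 with S4U and 80.8 without it. The log2 fold change of -1.61 ± 0.36 (SE), with a 95% interval from -2.46 to -0.76, had an unadjusted p of 0.00289 and an adjusted p of 0.543 by edgeR. Of all genes tested, 3.13% were lower in the labeled group at an unadjusted p under 0.05, and *Sfrp2* and *Dkk3* were the members among them. Any reads that end at the annotated 3′ end of the gene, 2322 bases farther on, would lie outside this interval.

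The T>C conversion rate of *Dkk3* was 0.0241, 0.0459 and 0.0476 in the labeled libraries, but on only 747, 588 and 126 covered T, and the Wilson interval of the last value ran from 0.0220 to 0.1. No conversion was seen in 2138 and 1595 covered T of the unlabeled libraries, which allows rates of up to 0.0014 and 0.00188. The beta-binomial test gave a difference of 0.0392 (adjusted p = 0.000219). At this coverage *Dkk3* could not be placed among the other members by its rate.

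*Dkk2* (ENSMUSG00000028031.8, chr3:131883882-131886059, plus strand, exon 5 of 5) had 4 reads in labeled replicate 1, 2 reads in unlabeled replicate 1 and none in the other 3 libraries. One of the labeled reads carried a conversion. *Wif1* (ENSMUSG00000020218.13, chr10:120935785-120936547, plus strand, exon 11 of 11) had no read in any library. A count of 0 allows levels of up to 1.90, 2.51 and 5.93 CPM with S4U, and of 1.63 and 3.01 without it. Neither gene entered the rate test or passed the filter of the read test, and without that filter the adjusted p of *Dkk2* by edgeR was 0.984.

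**Figure D2:**
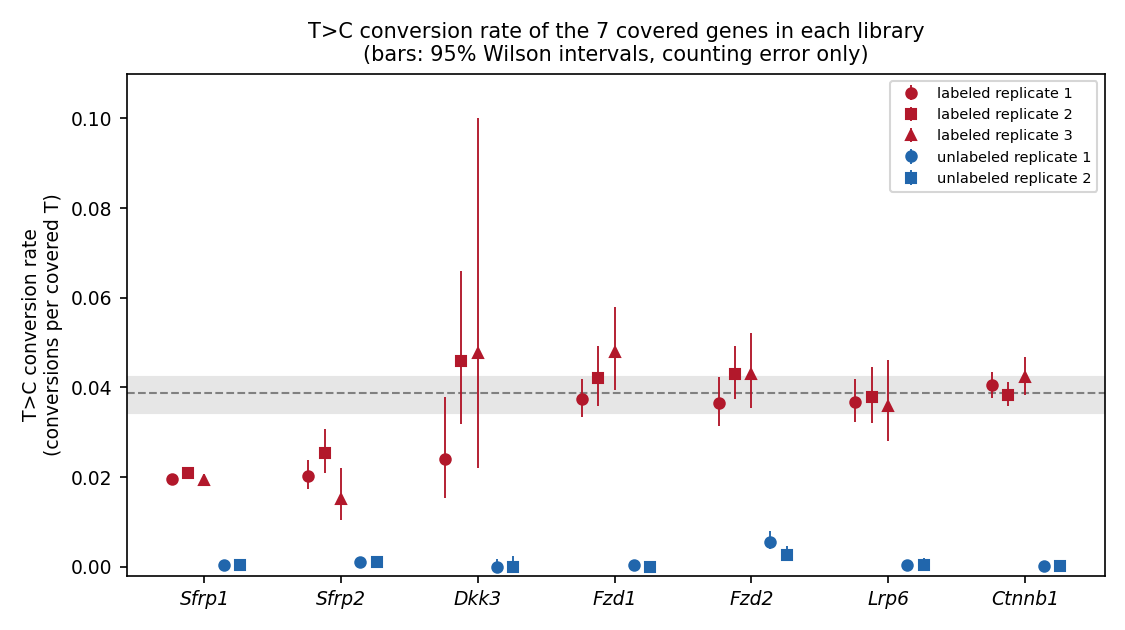
T>C conversion rate (conversions per covered T) of the 7 genes with a covered T in all libraries; points are single libraries, bars are 95% Wilson intervals for counting error only, and the dashed line and gray band are the median and quartiles of 2119 deeply covered genes. Sfrp1 and Sfrp2 lie below the band in every labeled library, and Fzd2 has the highest values among the unlabeled libraries.

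The receptors *Fzd1*, *Fzd2* and *Lrp6* were present at similar levels, with labeled means of 161.5 ± 60.1, 195 ± 35.4 and 181 ± 54.3 CPM (SD, n = 3). Their T>C conversion rates, 0.0424 ± 0.00525, 0.0408 ± 0.00373 and 0.0369 ± 0.000913 (SD, n = 3), were above those of *Sfrp1* and *Sfrp2* in every labeled library. Most deeply covered genes also had a higher mean rate than *Sfrp1* and *Sfrp2*, so that this order sets no receptor apart. The reads of no receptor passed the edgeR test between the groups (adjusted p = 0.999 each), and the groups overlapped.

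*Fzd1* (ENSMUSG00000044674.7, chr5:4803839-4805651, minus strand, exon 1 of 1, 1813 bases) encodes a membrane receptor for Wnt ligands. Its level was 228, 110.5 and 146 CPM with S4U, and 207 and 133.5 without it. Replicate 1 was the highest in both groups, unlike in *Sfrp1*. The log2 fold change was 0.01 ± 0.36 (SE), with a 95% interval from -0.84 to 0.85. Its T>C conversion rate was 0.0374, 0.0420 and 0.0479 with S4U, and 0.000332 and 0 without it. This is a difference of 0.0422 (beta-binomial adjusted p = 2.03e-05), and 75.9% of the deeply covered genes had a lower rate.

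*Fzd2* (ENSMUSG00000050288.7, chr11:102497271-102498884, plus strand, exon 1 of 1, 1614 bases) is a second Frizzled receptor. Its level was 163, 189 and 233 CPM with S4U, and 144 and 187 without it. This gave a log2 fold change of 0.31 ± 0.29 (SE), with a 95% interval from -0.38 to 1.01. In *Fzd2* the T>C conversion rate was 0.0365, 0.0430 and 0.0429 with S4U (beta-binomial adjusted p = 4.29e-05).

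*Fzd2* had the highest rate without S4U of the 7 covered genes, 0.00555 and 0.00254. These rates rested on 28 and 10 conversions, each in a read of its own, and 10.6% and 5.38% of the unlabeled *Fzd2* reads were converted. With the unlabeled mean subtracted, the labeled rate of *Fzd2* was 0.0368 in place of 0.0408. The interval overlaps the long noncoding RNA gene *Gm73012* on the other strand, whose part in these values was not tested.

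*Lrp6* (ENSMUSG00000030201.17, chr6:134423445-134427748, minus strand, exon 23 of 23, 4304 bases) encodes a co-receptor that most DKK proteins bind. Its level was 243, 143 and 156 CPM with S4U, and 184.5 and 124.5 without it. As for *Fzd1*, replicate 1 was the highest in each group. Its log2 fold change of reads was 0.31 ± 0.32 (SE), with a 95% interval from -0.44 to 1.05. It varied little in its T>C conversion rate, with 0.0368, 0.0378 and 0.0360 in the labeled libraries, and it was 0.000326 and 0.000347 in the unlabeled ones (difference 0.0365, beta-binomial adjusted p = 7.42e-06). A lower rate was found for 37.1% of the deeply covered genes.

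Of the intracellular components, *Ctnnb1* was well covered and *Axin2* was near the detection limit. *Ctnnb1* (ENSMUSG00000006932.19, chr9:120788584-120789573, plus strand, exon 16 of 16, 990 bases) had levels of 506, 669.5 and 701.5 CPM with S4U, and of 748 and 887 without it. All labeled libraries were below both unlabeled libraries, by a small margin for replicates 2 and 3, as were the fibroblast markers *Pdgfra* and *Ddr2*, whose part in the lower values of *Sfrp2*, *Dkk3* and *Ctnnb1* was not tested. The log2 fold change was -0.31 ± 0.27 (SE), with a 95% interval from -0.96 to 0.34 (edgeR adjusted p = 0.999). Its interval overlaps *Ulk4* on the other strand.

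The T>C conversion rate of *Ctnnb1* was 0.0404, 0.0384 and 0.0423 with S4U, on 8724 to 19808 covered T. Without S4U it was 0.00022 and 0.000133. The difference of 0.0402 had an adjusted p of 4.89e-06 by the beta-binomial test. Converted reads were the majority of *Ctnnb1* reads in each labeled library, with 56.0%, 57.8% and 63.1%.

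*Axin2* (ENSMUSG00000000142.17, chr11:108840222-108841609, plus strand, exon 11 of 11, 1388 bases) had 2, 3 and 0 reads with S4U, and 5 and 1 reads without it. Of its 5 reads with S4U, 4 carried a conversion, and of its 6 reads without S4U, none did. The 8 conversions fell on 147 covered T. Labeled replicate 3 had no read, so that *Axin2* did not enter the rate test, and its counts were too low for the filter of the read test. Without that filter its adjusted p by edgeR was 0.989, and no difference in its level was detectable at this depth.

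**Figure D3:**
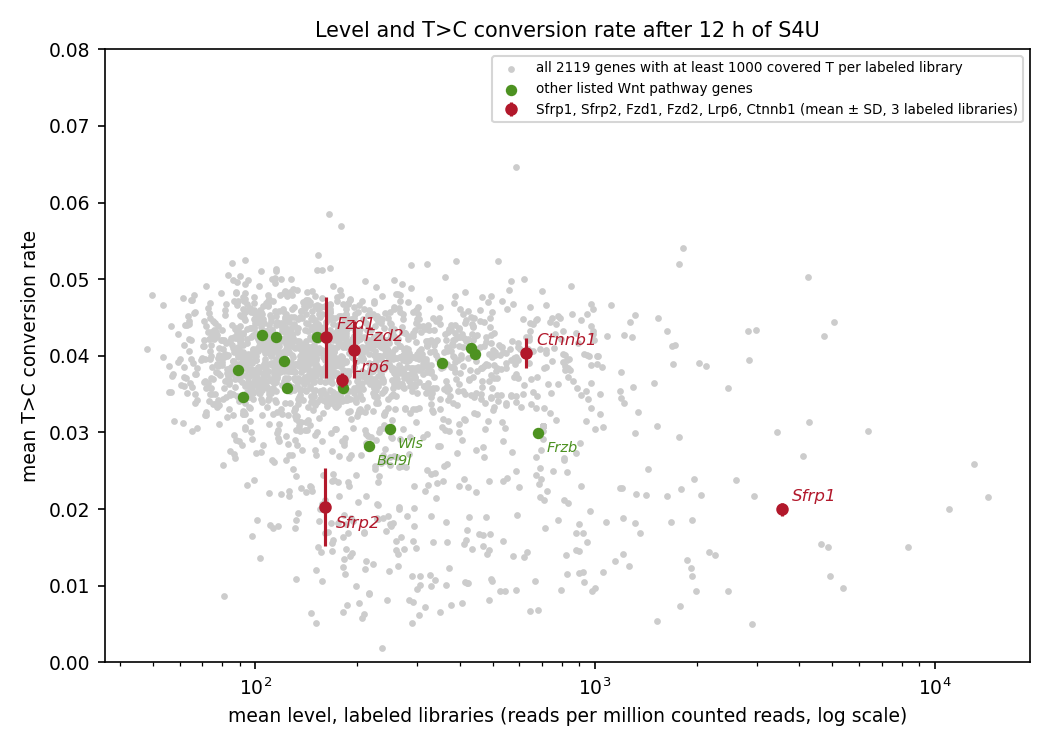
Mean level (CPM of counted reads, log scale) against mean T>C conversion rate over the 3 labeled libraries; gray points are the 2119 deeply covered genes, green points are other listed Wnt pathway genes, and red points with SD bars are the 6 deeply covered genes described in the text. Sfrp1 stands at high level and low rate, and Sfrp2 at the same rate but with a mean level of 161 against 3545.

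Ordered by mean T>C conversion rate with S4U, the 7 covered genes were *Fzd1*, *Fzd2*, *Ctnnb1*, *Dkk3*, *Lrp6*, *Sfrp2* and *Sfrp1*. Of the steps between neighbors, only that from *Lrp6* to *Sfrp2* (0.0369 against 0.0203, a difference of 0.0166) exceeded the SDs of both genes, and it was seen in 3 of 3 libraries. The measured rates of the other 5 genes were above both *Sfrp1* and *Sfrp2* in every labeled library, but in replicate 1 the value of *Dkk3* (0.0241, Wilson interval 0.0153 to 0.0378) was not separated from either. By the share of converted reads 4 of these 5 were above both, the exception being *Dkk3* with 27.1% in labeled replicate 1. Of the deeply covered genes, only 7.74% and 8.02% had a lower mean rate than *Sfrp1* and *Sfrp2*. A rate above theirs was thus common and sets no member apart. By level the order was *Sfrp1*, *Ctnnb1*, *Fzd2*, *Lrp6*, *Fzd1*, *Sfrp2* and *Dkk3*, where *Fzd2* to *Sfrp2* were not separated beyond their SDs.

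The comparison of reads with and without S4U asks whether the labeling itself went with a change in level. No gene of 9806 passed edgeR's quasi-likelihood test at an adjusted p under 0.05 (0%), and DESeq2 called 10 higher and 4 lower, with no member among them. At an unadjusted p under 0.05 edgeR gave 279 higher and 307 lower, but 6 and 49 with the deposited CPM denominators as library sizes. With the replicate number as a block, edgeR called 529 genes higher and 617 lower at an adjusted p under 0.05. *Sfrp2*, *Dkk3* and *Ctnnb1* were among the lower ones, but nothing states that a number marks a shared preparation. All labeled libraries were below both unlabeled libraries for 3 of the 7 members tested (*Sfrp2*, *Dkk3* and *Ctnnb1*), against 13.1% of all genes tested. They were above both for none of the members, against 8.21% of all genes. The members' median log2 fold change was 0.01, with a range from -1.61 to 0.39, and that of all genes tested was 0.02. The positive signs of *Sfrp1*, *Fzd1*, *Fzd2* and *Lrp6* turned negative when the deposited CPM denominators served as library sizes, a setting that moved the median of all genes to -0.43.

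**Figure D4:**
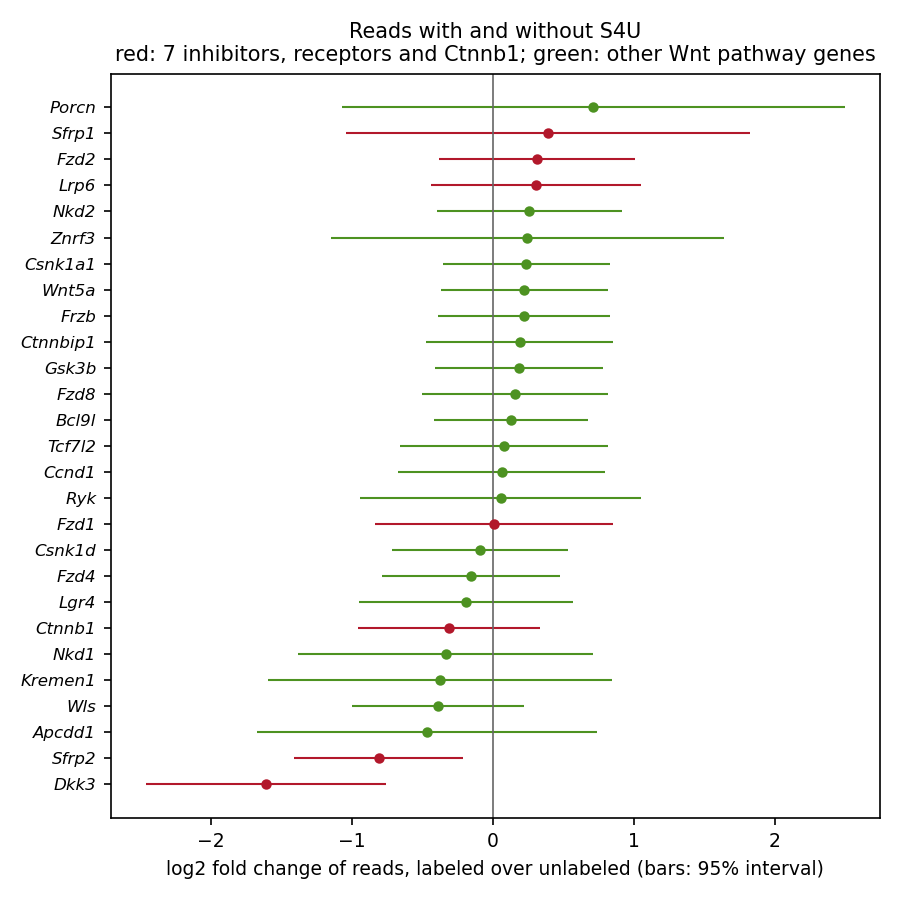
Log2 fold change of reads, labeled over unlabeled, with 95% intervals from the edgeR fit, for the 7 tested members (red) and the tested pathway genes named in the text (green). The intervals of Sfrp2 (-1.41 to -0.21) and Dkk3 (-2.46 to -0.76) do not reach 0, and no gene has an adjusted p under 0.05 in this fit, which has no replicate block.

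The rest of the pathway was described with a list of 87 further genes, of which 22 had no read in any library and 44 had at least 10 CPM on average in the labeled libraries. Of the 50 for which all libraries covered a T, 49 had a higher T>C conversion rate with S4U by the beta-binomial test, the exception being *Wnt11* (adjusted p = 0.112), against 94.5% of all intervals tested. None of the 46 tested for reads passed edgeR's test, also not at an unadjusted p under 0.05, and their median log2 fold change was 0.09, against 0.02 for all genes tested. Of these changes 27 were positive and 19 negative, against 5069 and 4737 of all genes.

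Among 21 genes for ligands and their secretion, 10 had no read, all of them Wnt ligands. The highest level was that of *Wls*, the carrier that brings Wnt proteins to the cell surface, with 249 ± 42.6 CPM and a T>C conversion rate of 0.0304 ± 0.00376 (SD, n = 3). *Wnt5a*, a ligand best known for signaling without β-catenin, followed with 83.2 ± 7.59 and a rate of 0.0409 ± 0.00348. *Porcn*, the enzyme that attaches the lipid of Wnt proteins, had 9.72 ± 4.80 CPM. No listed ligand came near the level of *Sfrp1*.

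Of 12 further secreted or surface inhibitors, 7 had no read, *Dkk1*, *Dkk4*, *Sfrp5* and *Sost* among them. *Frzb*, a secreted frizzled-related protein also called SFRP3, had 681 ± 146 CPM and was the highest. Its T>C conversion rate of 0.0299 ± 0.00403 (SD, n = 3) was above that of *Sfrp1* and *Sfrp2*, and 15.6% of the deeply covered genes had a lower one. *Apcdd1* and *Kremen1*, a binding partner of DKK proteins, had 46.9 ± 30.8 and 40.9 ± 22.9 CPM. Their rates were 0.0509 ± 0.00541 and 0.0447 ± 0.00324 (SD, n = 3), on as few as 301 and 331 covered T in a labeled library. Not every inhibitor measured had a low rate, though *Apcdd1* and *Kremen1* were not deeply covered.

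Among 13 other receptors and co-receptors only *Fzd10* had no read. *Ryk*, a receptor with an inactive kinase domain, had 431 ± 187 CPM at a rate of 0.0410 ± 0.00237 (SD, n = 3), *Fzd4* had 181 ± 25.4 at 0.0358 ± 0.00106 and *Fzd8* had 89.1 ± 14.0 at 0.0381 ± 0.00342. In the R-spondin module, which controls how many Wnt receptors stay at the surface, *Rspo4*, *Lgr5* and *Rnf43* of 9 genes had no read. *Lgr4* had 26.5 ± 4.68 CPM (SD, n = 3). *Znrf3* averaged 16.4 but ranged from 7.90 to 30.5 over the labeled libraries, and *Lgr6* averaged 4.06, with a range from 0 to 8.37.

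All 14 genes of the Dishevelled and destruction complex group had at least 10 CPM. The kinases *Csnk1a1*, *Gsk3b* and *Csnk1d*, which phosphorylate β-catenin or other parts of the pathway, were highest with 445 ± 82.0, 356 ± 66.0 and 152 ± 22.6 CPM. Their T>C conversion rates of 0.0403, 0.0390 and 0.0424 were close to that of *Ctnnb1*. Rates of this size were common, as 60.9%, 51.8% and 76.1% of the deeply covered genes had a lower one, and 61.5% a lower one than *Ctnnb1*. Among 13 nuclear factors, *Bcl9l*, a β-catenin cofactor, had 216 ± 19.5 CPM and a rate of 0.0283 ± 0.000852 (SD, n = 3), below the lower quartile of the deeply covered genes. *Tcf7l2*, a TCF factor, had 115 ± 37.9 at 0.0425, and *Ctnnbip1*, which binds β-catenin and keeps it from TCF factors, had 104.8 ± 10.5 at 0.0427.

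Of 5 other feedback targets, 3 had at least 10 CPM, *Sp5* had no read and *Tnfrsf19* had 2 reads over all libraries. *Nkd2* and *Nkd1*, which act on Dishevelled, had 122 ± 7.19 and 11.3 ± 4.12 CPM, and *Ccnd1*, which encodes cyclin D1, had 56.1 ± 11.5. For *Nkd2* the T>C conversion rate was 0.0394 ± 0.00352 (SD, n = 3). *Axin2* itself averaged 1.26 ± 1.26 CPM in the labeled and 1.86 ± 1.21 in the unlabeled libraries (SD, n = 3 and n = 2).

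The genes most like *Sfrp1* were sought among the 2119 deeply covered genes, by the distance over level and rate in the 3 labeled libraries. The nearest was *Serpinh1*, which encodes a collagen chaperone, with a mean level of 2950 CPM and a rate of 0.0217. *S100a6* (2599, 0.0237) and *S100a4* (1790, 0.0226), which encode calcium-binding proteins, followed. *Axin2* was below the coverage this measure needs.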

How the data were processed

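SLAMseq libraries of cultured CF were analysed, 3 with and 2 without S4U. The authors extracted unique molecular identifiers, mapped 3′ end reads with SLAM-DUNK 0.4.3 (mm39), deduplicated them and counted on 3′ UTR intervals. They deposited read counts, converted-read counts, covered T counts and conversion counts without normalization. The deposited T>C conversion rate is a fraction, conversions over covered T. The deposited CPM divides by 10975173 to 14616278 reads per library, 7.58 to 28.9 times the reads counted here on 1 interval per gene, and levels were therefore recomputed from the counted reads.

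Repeated rows were used once, leaving 40428 intervals. The T content of 40380 of 40380 intervals on reference chromosomes matched GRCm39, from which sequences, exons and identifiers were read (GENCODE annotation). Coordinates count from 1.

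T>C conversion rates were compared with a two-sided beta-binomial likelihood-ratio test (1 shared overdispersion, chi-square with 1 degree of freedom) on intervals with covered T in every library. For reads, edgeR's quasi-likelihood F-test was used after TMM scaling and filterByExpr. Both were Benjamini-Hochberg adjusted over all features tested, and 0.05 was the threshold. Both tests were run on simulated data, in which the beta-binomial p-values of unchanged intervals were slightly too small. Wilson intervals (95%) and the limit of 3 counts for a count of 0 cover counting error only.

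The members, lists and tests were chosen with earlier results of these data known. Named were the 10 members, the 3 pathway genes per role with the highest labeled CPM, every pathway gene past the read test, and the 3 genes nearest to *Sfrp1* and to *Axin2*. Genes listed as having no read, *Wnt11* and the overlapping genes were named after their values were seen. Alternatives were DESeq2, other library sizes and filters, other coverage minimums, limma on log odds (pseudocount 0.5), other intervals, leaving out each library and the replicate number as a block. Versions were edgeR 4.0.16, DESeq2 1.42.0 and limma 3.58.1 under R 4.3.3, and pandas 2.3.3, scipy 1.17.1, numba 0.67.0, numpy 2.4.6 and matplotlib 3.10.9 under Python 3.11.15.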

Additional observations from a re-analysis of the deposited data

How the results depend on the processing

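The 7 tested members had a higher T>C conversion rate with S4U under every alternative that tested them, and *Dkk3* was not covered deeply enough for the minimum of 1000 covered T. The number of intervals with a higher rate was 3154 under a minimum of 1000 covered T and 10611 when each gene kept 1 interval, since fewer were tested, and no interval was called lower. The counts of genes at an unadjusted p under 0.05 by edgeR, 279 higher and 307 lower, became 446 and 534 without labeled replicate 1, 157 and 148 without labeled replicate 2, and 155 and 153 without labeled replicate 3. They were 191 and 196 without unlabeled replicate 1, and 320 and 248 without unlabeled replicate 2. The deposited CPM denominators as library sizes gave 6 higher and 49 lower, and the replicate number as a block gave 1179 and 1158. DESeq2 called 10 genes higher and 4 lower in reads, where edgeR called 0; the cause was not tested. The sign of the log2 fold change of reads turned for *Fzd1* with DESeq2 (-0.0055), with RLE size factors (-0.00092), with at least 10 reads in every library (-0.023) and with labeled replicate 1 (-0.32) or unlabeled replicate 2 (-0.24) left out, and for *Sfrp1* without unlabeled replicate 1 (-0.17). Leaving out 1 library at a time gave -0.32 to 0.30 for *Fzd1* and -0.17 to 1.31 for *Sfrp1*, and, with no sign turned, 0.089 (without unlabeled replicate 1) to 0.56 for *Fzd2*, 0.047 (without labeled replicate 1) to 0.56 for *Lrp6* and -0.47 to -0.13 (without unlabeled replicate 2) for *Ctnnb1*. With the deposited CPM denominators as library sizes it turned for *Sfrp1* (-0.23), *Fzd1* (-0.37), *Fzd2* (-0.21) and *Lrp6* (-0.073). None of these passed the test under either setting.

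With the replicate number as a block, 529 genes were higher and 617 lower, and *Sfrp2* (-0.77, adjusted p = 5.01e-05), *Dkk3* (-1.37, adjusted p = 1.30e-07) and *Ctnnb1* (-0.43, adjusted p = 0.0372) passed edgeR's test. Labeled replicate 3 has no unlabeled library of its number, so that it adds nothing to the comparison of the groups in this fit. Across genes, the deviations from the group means had r = 0.78 for the pair of libraries with number 1 and r = 0.63 for the pair with number 2. Labeled replicate 3 and unlabeled replicate 2, which share no number, had r = 0.47. Genes are not independent replicates. Only 2 numbers are shared, with 2 unlabeled libraries the deviations of one mirror those of the other, and nothing states that a number marks a shared preparation, so the libraries were not treated as paired. Depth limits *Axin2* and *Dkk2*, which entered a read test only without the filter on low counts, and *Wif1*, which had no read, and labeled replicate 3, with the fewest counted reads, limits the rates of *Dkk3* and *Sfrp2*.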
